A study of Mus musculus with 2 samples.

Results

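Mrc1, Retnla, Cd163, Clec10a, Clec4b1, Folr2, Lyve1, Stab1, Fcrls and Pmp22 are genes that mark alternatively activated or tissue-resident macrophages, and each was found by its symbol in the gene tables of both single-cell libraries, as 10 of 31053 genes. The 10 genes were selected on measured values of these libraries: several had been among the genes with the highest ratio of the double-knockout library over the single-knockout library, so that ratio is given for them as a description and supports nothing. The cells came from the colons of bone marrow chimeras, in which CD45.2 donor marrow had engrafted in CD45.1 (PepBoy) recipient mice for 10 weeks. Donors were IL-10R KO, with a knockout of the receptor gene Il10rb, or IL-10R/CerS2 DKO, which in addition lacked CerS2, the ceramide synthase for the very long acyl chains. Both groups therefore carried the receptor knockout, each deletion was present in all cells of the donor marrow, and non-haematopoietic cells of the host were intact. Cells had been sorted for CD45.2, CD11b, CD11c and CD64, with the aim of leaving out neutrophils, T cells and B cells. Each genotype had 1 library, with the number of mice behind it not given in the sources used here and receptor-sufficient donors not analysed here, so genotype, mouse, sort and library cannot be told apart and no test was possible.

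Macrophages that take up debris and keep tissues in order carry scavenger and lectin receptors on their surface. Signals through the IL-4 receptor and its transcription factor STAT6 raise many of the same genes, a state called alternative activation, of which Mrc1 and Retnla are classic markers in mice. In the gut, blood monocytes enter the lamina propria continuously, lose monocyte genes and acquire receptors of this kind as they mature, while a smaller, longer-lived population sits around vessels and nerves and carries Lyve1, Folr2 and Cd163. IL-10 restrains inflammatory genes in these cells, and mice or humans without its receptor develop colitis.

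The KO library held 2584 barcodes and the DKO library 742, of which 2443 and 730 passed the filter on cells, and 1 barcode sequence occurred in both. Cells with at least 1 UMI (a tagged molecule, counted once) of Csf1r, the receptor for macrophage colony-stimulating factor, or of Lyz2, a lysozyme of myeloid cells, were taken as the macrophage lineage: 1721 KO and 392 DKO cells, with a median of 5382 and 5332 UMIs. Of these, 74.5% and 67.1% had a UMI of Csf1r and 93.3% and 97.2% a UMI of Lyz2. Cers2, deleted only in the DKO, had 454 UMIs in the KO cells and 1 in the DKO cells. Il10rb, the gene knocked out in both, had 46 and 10 UMIs. These do not check that label: where the deletion lies relative to the 3′ reads was not given in the sources used here and no receptor-sufficient cells were analysed. Clustering of all kept cells also gave B cell-like, T cell-like, neutrophil-like and epithelial-like clusters, so the libraries held more than the label of colon macrophage says. The Csf1r or Lyz2 cells, called the lineage below, were mixed too. Neutrophil-like cells were 4.82% of them in KO and 7.14% in DKO, and dendritic cell-like cells 3.49% and 9.44%. An unnamed cluster led by Arg1, Cxcl3 and Nos2 was 10.4% and 0.51%, so the mix differed between the libraries. In the 376 KO and 212 DKO lymphocyte-like cells, with medians of 2717 and 2615.5 UMIs, the 10 genes were found in 2 cells and in none, which for any 1 gene at 0 allows a share of up to 0.798% and 1.42% (3 cells of the total). The shares of Cd163 and Lyve1 given below lay under those limits, so this measure cannot tell them apart from free RNA.

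For every gene the share of positive cells was larger in DKO, and the exact 95% intervals of the shares, which cover counting error only, were apart for 7 of the 10. The share was at least 2-fold larger in DKO for 7 of the 10, against 4.27% of all genes compared, and the pooled level, in UMIs per 1000000 (CPM), was at least 2-fold higher for 9 of the 10, against 5.71% of all genes. Since the members were chosen with this ratio in view, nothing is read from those counts. The median over the 10 genes of the DKO over KO ratio was 3.44 for the share of positive cells and 1.15 for UMIs per positive cell, against 1.01 and 1.02 over all genes. That split is a description only, since the choice of the members bears on it too. Most positive cells of Clec10a, Clec4b1 and Stab1 held a single UMI in both libraries, which leaves UMIs per positive cell little room to differ. UMIs per positive cell were higher in DKO for 6 of the 10 genes, against 57.3% of all genes. With every cell thinned to 2000 UMIs, which left out 198 KO and 51 DKO cells that were shallower, all 10 shares were again higher in DKO, the intervals were apart for 6, and the median ratios were 3.39 and 1.16.

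**Figure D1:**
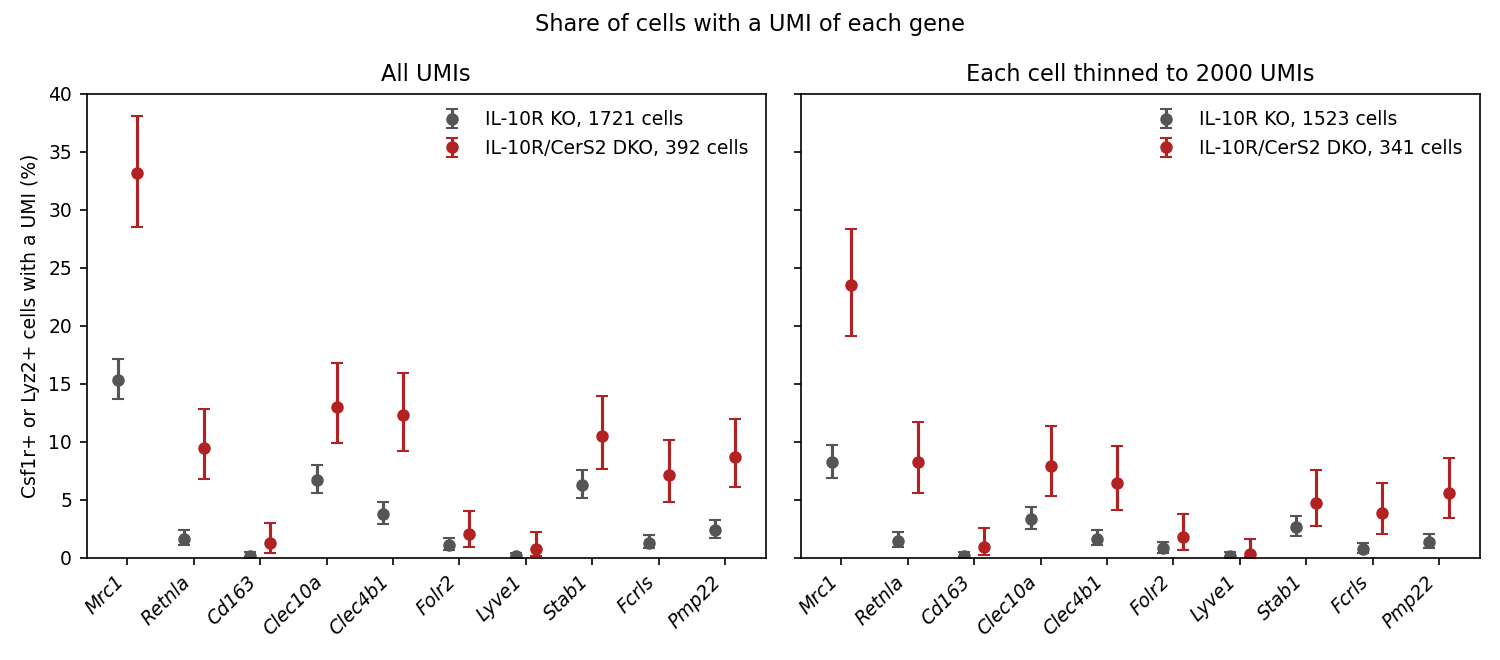
Share of Csf1r+ or Lyz2+ cells with a UMI of each gene (y axis, %), in IL-10R KO (grey) and IL-10R/CerS2 DKO (red), with all UMIs on the left and each cell thinned to 2000 UMIs on the right; points are single libraries and bars exact 95% intervals of counting error. Mrc1 was found in the largest share in both libraries, 15.3% of KO and 33.2% of DKO cells, and each DKO point lies above its KO point.

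Mrc1 encodes the mannose receptor CD206, an endocytic lectin receptor. In KO it had 641 UMIs in 264 cells (15.3%, interval 13.7 to 17.1), and in DKO 475 UMIs in 130 cells (33.2%, 28.5 to 38.1). A positive cell held 2.43 ± 2.31 UMIs (SD over cells) in KO and 3.65 ± 3.50 in DKO, with a maximum of 19 in each. Mrc1 was thus found in a larger share of cells in DKO, with a higher mean of UMIs per positive cell. The median positive cell held 1 UMI in KO and 2 in DKO, and the SDs were wider than the gap between the means. A single UMI was held by 51.1% of the positive KO cells and 36.9% of those in DKO. For the pooled levels, 66.1 CPM for KO and 211 CPM for DKO, the log2 ratio was 1.67 (1.498 to 1.846). Part of Mrc1 cannot be told apart from Mir511, which lies within it on the same strand.

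Of the other lectin receptors, Clec10a had close to equal UMIs per positive cell in both libraries and Clec4b1 somewhat more in DKO. Clec10a, a galactose-type lectin of macrophages and dendritic cells, was found in 115 KO cells (6.68%, 5.55 to 7.97) and 51 DKO cells (13.01%, 9.84 to 16.7), with 1.76 and 1.69 UMIs per positive cell. Clec4b1, a C-type lectin of the dendritic cell immunoreceptor group, was found in 65 KO cells (3.78%, 2.93 to 4.79) and 48 DKO cells (12.2%, 9.17 to 15.9), with 1.43 and 1.77 UMIs per positive cell. For Clec10a the ratio between the libraries, a log2 value of 0.88 (0.49 to 1.24), lay almost wholly in the share of cells, and it was the member under 2-fold. For Clec4b1 the log2 ratio of 1.98 (1.53 to 2.42) was also mostly a ratio of shares, 3.24-fold, beside 1.24-fold in UMIs per positive cell. Most cells with either gene held a single UMI of it: 67.8% and 62.7% of the Clec10a cells and 75.4% and 64.6% of the Clec4b1 cells in KO and DKO.

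Of the scavenger receptors, Stab1 was common and Cd163 and Lyve1 were rare. Stab1, stabilin-1, a receptor for modified lipoprotein and for cell debris, was found in 108 KO cells (6.28%, 5.18 to 7.53) and 41 DKO cells (10.46%, 7.61 to 13.9), the smallest ratio of shares of the 10 genes at 1.67, and with thinning its intervals overlapped. Cd163, the receptor for haemoglobin bound to haptoglobin, was found in 3 KO cells with 4 UMIs and in 5 DKO cells with 11. Lyve1, a hyaluronan receptor also made by lymphatic endothelium, was found in 2 KO cells and 3 DKO cells, with 8 UMIs in each library. With so few cells the log2 ratios of 3.46 for Cd163 (1.81 to 5.67) and 2.11 for Lyve1 (0.49 to 3.72) rest on 8 and 5 cells in all. Folr2, folate receptor beta, which marks resident macrophages in several tissues, was also rare, in 18 KO cells (1.05%, 0.621 to 1.65) and 8 DKO cells (2.04%, 0.885 to 3.98), and its intervals overlapped. Folr2 and Stab1 overlap genes on the opposite strand (Gm10602 and Gm45319, and Nt5dc2).

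Retnla, which encodes the secreted protein RELMα, stood apart in how its UMIs were spread. It had the most UMIs of the 10 genes in both libraries, 1119 in KO and 889 in DKO, yet these lay in 28 KO cells (1.63%, 1.08 to 2.34) and 37 DKO cells (9.44%, 6.73 to 12.8). The median positive cell held 25 UMIs in KO against 10 in DKO, with a range of 1 to 163 and 1 to 201. The 5 cells with the most UMIs held 59.9% of all Retnla UMIs in KO and 58.0% in DKO. Among genes with a total within 2-fold of its own, 1 of 1699 in KO and 2 of 560 in DKO had as many UMIs per positive cell. Retnla was therefore present in a 5.80-fold larger share of DKO cells but at a mean of 24.0 UMIs per positive cell against 39.96 in KO, the lowest ratio per positive cell of the 10 genes at 0.601, and the spread over cells (SD 39.9 and 50.2) was wider than that gap.

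**Figure D2:**
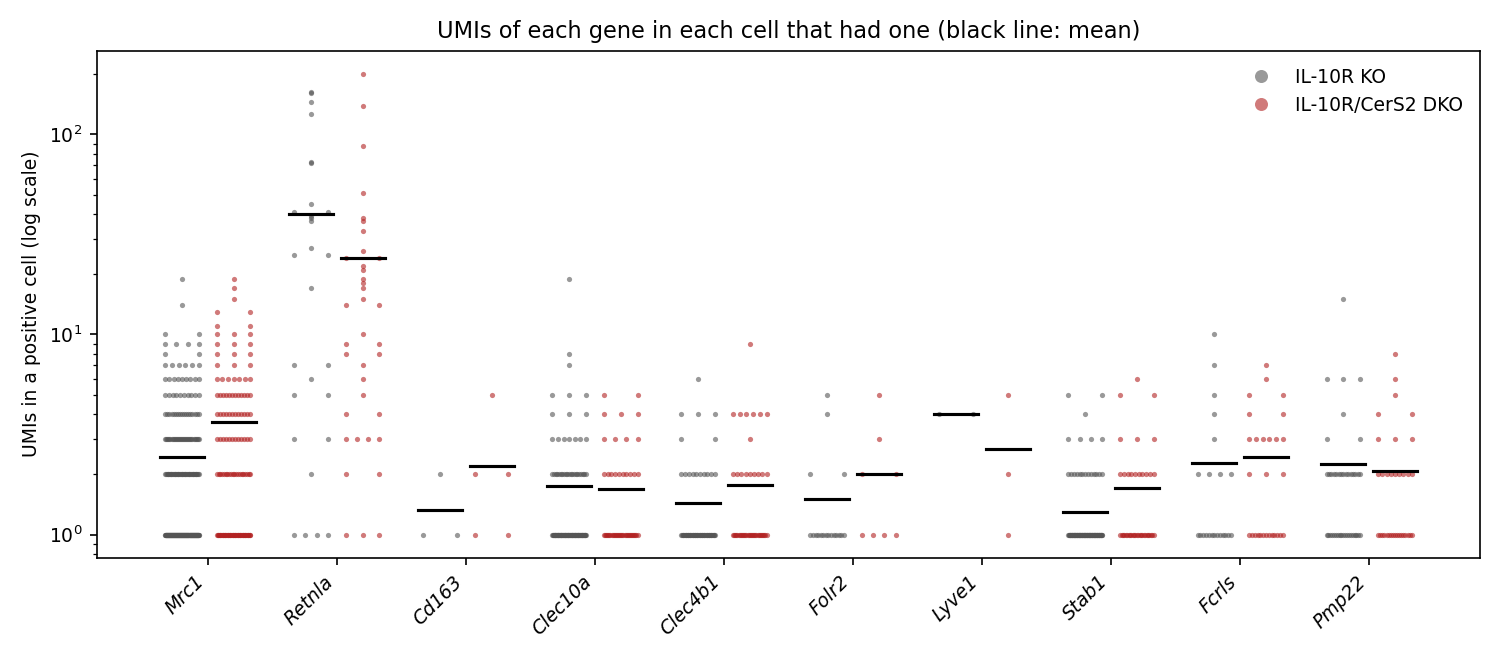
UMIs of each gene in each Csf1r+ or Lyz2+ cell that had at least 1 (y axis, log scale), with a point per cell, IL-10R KO in grey and IL-10R/CerS2 DKO in red, and the mean as a black line. Retnla runs from 1 to 163 UMIs per cell in KO and from 1 to 201 in DKO, while no other gene exceeds 19.

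Fcrls and Pmp22 complete the set. Fcrls, a scavenger-type relative of the Fc receptors best known from microglia, was found in 22 KO cells with 50 UMIs (1.28%, 0.803 to 1.93) and 28 DKO cells with 68 UMIs (7.14%, 4.80 to 10.2), the highest log2 ratio among members with more than 20 UMIs in each library at 2.54 (2.001 to 3.105). Its UMIs per positive cell were close, 2.27 and 2.43, so nearly all of the ratio was in the share of cells, 5.59-fold. Pmp22, a small membrane protein of myelin that many other cells also make, was found in 41 KO cells (2.38%, 1.71 to 3.22) and 34 DKO cells (8.67%, 6.08 to 11.9), with 2.24 and 2.09 UMIs per positive cell.

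The start sites of the members are shown for what they share in sequence, since several of the genes occurred in the same cells. RefSeq promoters (GRCm38.p6) were at hand for 8 of the 10 genes, all but Clec10a and Lyve1, and 3 motifs were searched on both strands in the 250 bases before each start: GAGGAA, the core bound by the myeloid factor PU.1; TTCNNNNGAA, the palindrome bound by STAT6; and TTGCNNAA, a C/EBP motif. The 8 genes had 12 promoters in all, and GAGGAA was in 5 of the 12 (1 each of Mrc1, Retnla, Clec4b1, Stab1 and Fcrls), against 23.3% of all 32851 promoters. Retnla alone held the STAT6 and C/EBP motifs, which occur in 5.85% and 9.56% of all promoters. The motif windows of Retnla, Mrc1, Clec4b1 and Stab1 lie upstream of the annotated exons. They are given on the gene's strand, 5′ to 3′, with the motif letters in capitals (TTCCTC is GAGGAA on the opposite strand). No window is given for Fcrls, whose motif, 144 bases before its start, does not lie upstream of all its annotated exons. A match describes the letters and does not show binding.
Retnla, chr16:48842393-48842502: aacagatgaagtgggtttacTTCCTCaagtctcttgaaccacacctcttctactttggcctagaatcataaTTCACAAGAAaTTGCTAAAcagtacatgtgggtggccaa
Mrc1, chr2:14229214-14229391: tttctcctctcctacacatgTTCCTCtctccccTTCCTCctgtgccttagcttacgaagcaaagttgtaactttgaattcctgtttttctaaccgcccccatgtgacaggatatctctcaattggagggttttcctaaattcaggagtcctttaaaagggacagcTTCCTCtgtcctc
Clec4b1, chr6:123049874-123049948: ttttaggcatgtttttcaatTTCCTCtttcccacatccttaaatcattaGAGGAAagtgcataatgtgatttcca
Stab1, chr14:31168646-31168691, minus strand: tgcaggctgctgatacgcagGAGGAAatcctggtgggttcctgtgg
In the Retnla window the STAT6 motif begins 145 bases before the start, the C/EBP motif 134 bases before it and the PU.1 motif 196 bases before it.

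Co-detection was then counted cell by cell. None of the 10 genes was found in 1272 of the 1721 KO cells (73.9%) and 209 of the 392 DKO cells (53.3%). At least 1 gene was found in 26.1% (24.0 to 28.2) of the KO and 46.7% (41.7 to 51.8) of the DKO cells, at least 2 in 7.84% (6.62 to 9.22) and 25.3% (21.0 to 29.9), and at least 3 in 2.85% (2.11 to 3.75) and 16.1% (12.6 to 20.1). The DKO over KO ratio of these shares was 1.79 for 1 gene, 3.22 for 2 and 5.64 for 3. It was 5.64 for 3 genes also in thinned cells, where the shares were 1.25% and 7.04%. Genes whose single shares are all larger in DKO give a ratio that rises with the number required, even if found independently. Since the members were chosen with their DKO over KO ratio in view, nothing is read from that rise. The cell with the most members had 8 of them in KO (all but Cd163 and Stab1) and 7 in DKO (all but Retnla, Cd163 and Clec4b1).

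**Figure D3:**
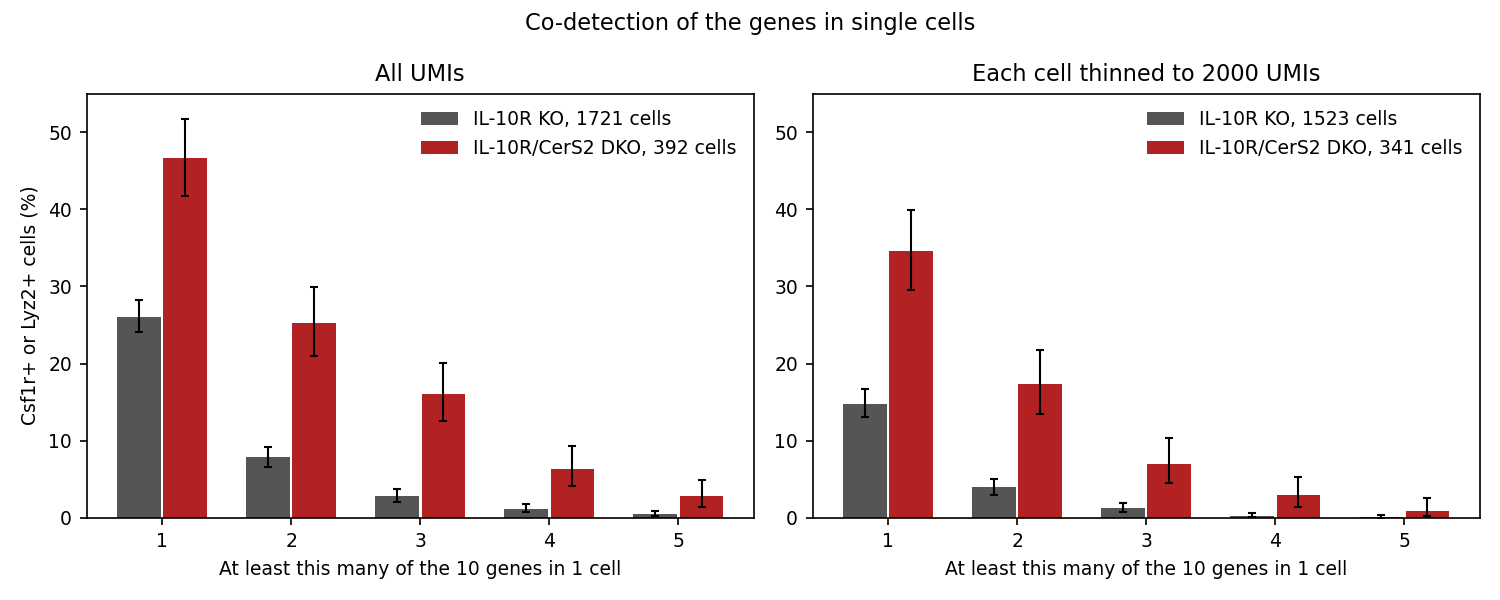
Share of Csf1r+ or Lyz2+ cells (y axis, %) with at least 1 to 5 of the 10 genes in the same cell (x axis), in IL-10R KO (grey) and IL-10R/CerS2 DKO (red), with all UMIs on the left and each cell thinned to 2000 UMIs on the right; error bars are exact 95% intervals of counting error. At least 3 genes were found in 2.85% of KO and 16.1% of DKO cells with all UMIs, and in 1.25% and 7.04% after thinning.

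The 49 KO and 63 DKO cells with at least 3 genes were of like depth to the rest, with medians of 6225 and 5491 UMIs against 5241.5 and 4958 in cells with none. The highest doublet scores (the top 5% of each library) took 1 of those 49 KO cells and 10 of the 63 DKO cells, 15.9%, against 7.65% of all DKO cells of the lineage. Without the top 5% the shares of cells with at least 3 genes were 2.98% and 14.6%. Blood and lymphatic endothelial markers had 2 UMIs in the KO cells with at least 3 genes and 12 in the DKO cells (6.28 and 33.5 CPM, against 39.7 and 26.6 CPM in the lineage), with Cdh5, Flt4, Prox1 and Plvap at 0 in both, and dendritic cell markers had 69.1 and 226 CPM there, below the 247 and 429 CPM of all cells of the lineage. The 8 B cell markers had 56.6 CPM in the KO cells and 92.0 CPM in the DKO cells, against 62.8 and 56.3 CPM in the lineage. The 7 markers of NK or innate lymphocytes had 66 UMIs in the KO cells with at least 3 genes, 207 CPM against 31.6 CPM in the lineage, and 63 of the 66 were in 1 cell. In the DKO cells they had 2 UMIs, 5.58 against 27.5 CPM. The part of doublets in the co-detection beyond these values was not tested.

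Of the 45 pairs, 15 were found together more often than apart in both libraries, in the sense that the share of cells with the second gene had intervals that did not overlap between cells with and without the first. In thinned cells 8 pairs did so. Within cluster 3, described below, 3 did (Mrc1 with Retnla, Mrc1 with Clec10a and Retnla with Fcrls). Among the 268 KO and 111 DKO cells of that cluster, the intervals were apart for 14 pairs in KO and 4 in DKO. The second gene was still found more often in cells with the first for 41 and 36 of the 45 pairs. Mrc1 was in 7 of the 15 pairs and 5 of the 8, and was in most cells of the rarer genes: 23 of 28 Retnla cells in KO (82.1%) and 32 of 37 in DKO (86.5%), against 14.2% and 27.6% of cells without Retnla. It was likewise in 18 of 22 and 24 of 28 Fcrls cells. The reverse did not hold, since 8.71% of KO and 24.6% of DKO Mrc1 cells had Retnla.

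Retnla and Fcrls were the other close pair. Fcrls was found in 10 of 28 Retnla cells in KO and 17 of 37 in DKO (35.7% and 45.9%), against 0.709% and 3.10% of cells without Retnla. Clec4b1 accompanied Clec10a in 18.3% of KO and 33.3% of DKO Clec10a cells, against 2.74% and 9.09% of the others. Stab1 and Retnla showed no such association: Retnla was in 2 of 108 Stab1 cells in KO and 2 of 41 in DKO (1.85% and 4.88%), against 1.61% and 9.97% of cells without Stab1, with intervals that overlapped in both libraries. At least 2 other members were in 71.4% and 81.1% of Retnla cells and 68.2% and 89.3% of Fcrls cells, but in 12.96% and 43.9% of Stab1 cells. Every cell with Cd163 or Lyve1, 5 in KO and 8 in DKO, also had at least 2 other members.

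**Figure D4:**
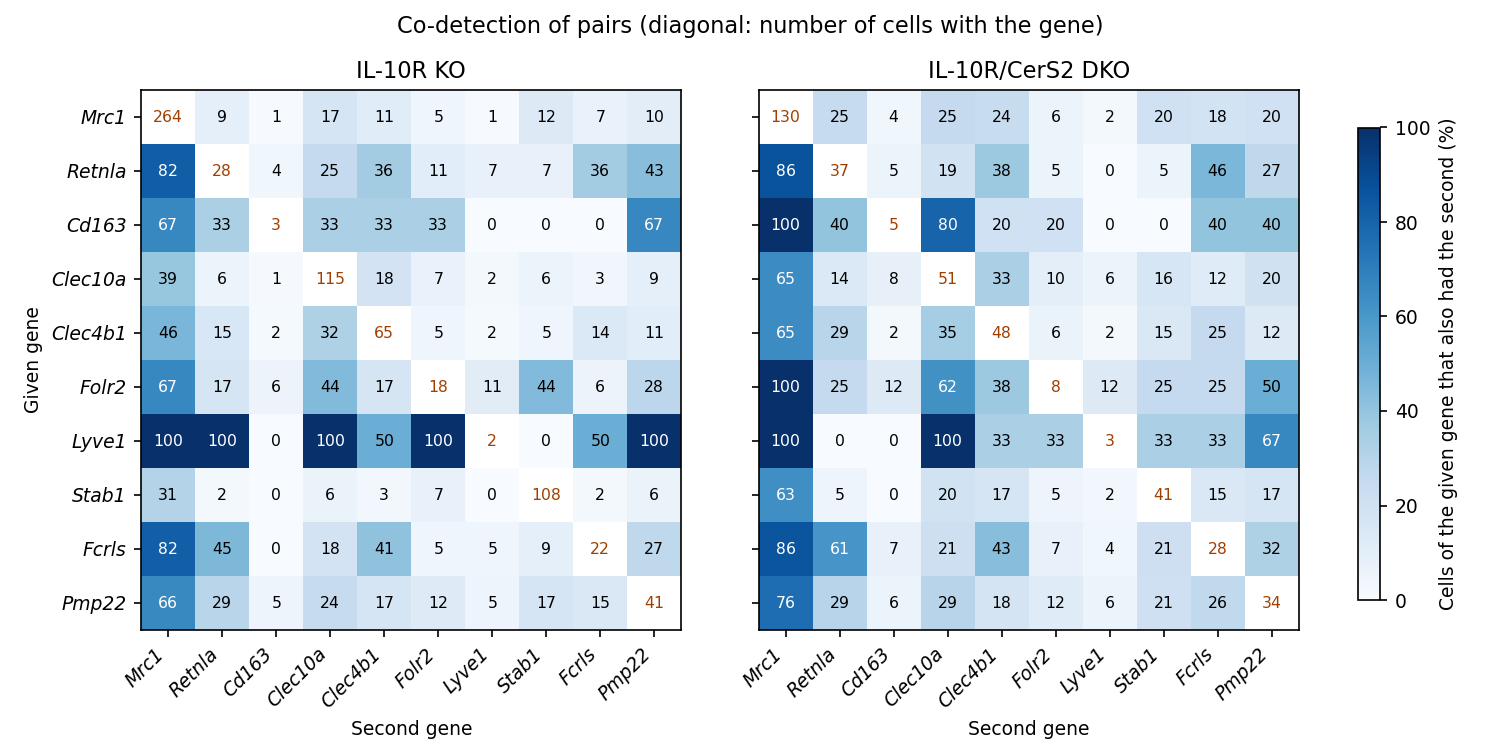
Share of the cells with a given gene (rows) that also had the second gene (columns), in % by colour and number, in IL-10R KO (left) and IL-10R/CerS2 DKO (right) with all UMIs; the diagonal gives the number of cells with the gene. The Mrc1 column is dark for Retnla (82.1% and 86.5%), while the Retnla entry of the Stab1 row is low (1.85% and 4.88%), and rows of Lyve1 and Cd163 rest on 2 to 5 cells.

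Clusters were made from all kept cells without the members or their companion genes among the variable genes, and the 10 genes fell into them unevenly. The monocyte/macrophage-like cells formed clusters 0, 1 and 3. Cluster 0 had Apoe, C1qa and C1qc among its leading genes, and cluster 1 the monocyte genes Vcan and Ly6c2. Cluster 3 was led by C4b, Gm26917, Mrc1 and Lpl, in that order, with Cd36 further down. Cluster 3 held 79.6% of KO and 79.4% of DKO cells with at least 3 members, though it was 12.8% (11.3 to 14.5) and 24.0% (19.8 to 28.5) of the lineage. Unnamed cluster 7, led by Arg1, Cxcl3 and Nos2, had 186 KO cells and 2 DKO cells and contained no cell with 3 members.

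Retnla was almost wholly in cluster 3, with 26 of its 28 KO and all 37 of its DKO cells of the lineage there, as were Folr2 (15 of 18 and 8 of 8) and Lyve1. Mrc1 was spread more widely: in cluster 3 it was found in 43.3% and 69.4% of cells, in cluster 0 in 18.3% and 36.3%, and in cluster 1 in 3.72% and 11.2%. Most cells with Stab1 were in cluster 0, 62.0% of them in KO and 58.5% in DKO, and it was also in 10.2% of the KO cells of cluster 7. By UMIs over all kept cells, cluster 0 held 64.3% of Stab1 in KO and cluster 3 held 8.57%. In DKO cluster 3 held more of the Stab1 UMIs, 52.1% against 43.8% in cluster 0. Clec10a and Clec4b1 were shared with the dendritic cell-like cluster 8, at 31.1% and 29.6% of its cells for Clec10a and 9.43% and 25.9% for Clec4b1. Cluster 1, the monocyte-like end, had no UMI of Retnla, Cd163, Folr2, Lyve1 or Fcrls in either library.

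**Figure D5:**
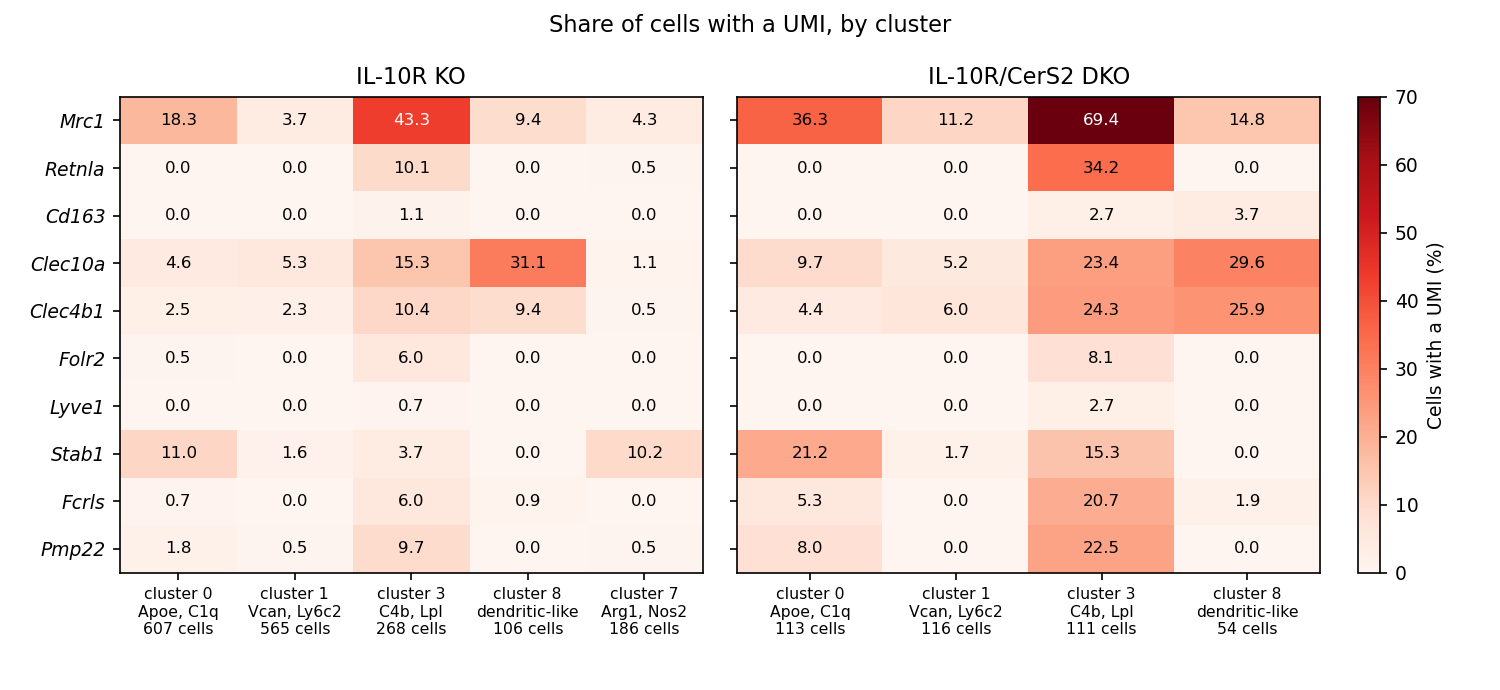
Share of cells with a UMI of each gene (% by colour and number) in the clusters that held most positive cells, in IL-10R KO (left) and IL-10R/CerS2 DKO (right), with all kept cells of a cluster counted; cluster 7 is left out of the DKO panel, where it had 2 cells. Retnla appears in cluster 3 (10.1% of KO and 34.2% of DKO cells) and is at or near 0 elsewhere, and Stab1 peaks in cluster 0 in both libraries.

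DKO values were then set beside KO values within each cluster. No share of all genes was counted within a cluster, and the members were chosen with this ratio in view, so nothing is read from these counts. In cluster 3 all 10 genes had a higher level in DKO, 6 with an interval above 0, and the median log2 ratio was 0.93, against 1.75 over the whole lineage. In cluster 0 it was 1.20 over the 6 genes with at least 10 UMIs, all higher in DKO and 5 with an interval above 0, led by Fcrls, which had 4 UMIs over the 607 cells from KO against 16 over the 113 from DKO. In cluster 1 the 4 such genes were higher in DKO, only Mrc1 with an interval above 0 (log2 ratio 2.42, 1.62 to 3.23). In the dendritic cell-like cluster Clec4b1 was higher in DKO (1.35, 0.52 to 2.23) and the log2 ratio of Clec10a was -0.39, its interval lying across 0 (-0.98 to 0.15).

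Depth moved with the difference in cluster 3. The median cell there had 1694 UMIs in KO against 3311 in DKO, and those with none of the 10 genes had 781 and 863. Retnla was found in 10.1% and 34.2% of the cells of the cluster in KO and DKO, and with the cells thinned to 1000 UMIs, which left 169 KO and 92 DKO cells, in 11.8% (7.38 to 17.7) and 35.9% (26.1 to 46.5). Mrc1 was then found in 32.5% and 52.2%, and these were the 2 genes whose intervals stayed apart, where 6 were apart without thinning. The median log2 ratio of the members with at least 10 UMIs was 1.07 after thinning.

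Other genes of the same programmes were taken from lists of their own. These lists too were chosen with earlier results of these data known, so they are no independent check of the 10. Of 14 companion genes of alternative activation with at least 10 UMIs, 2 were at least 2-fold higher and 2 at least 2-fold lower in DKO, against 5.71% and 4.72% of all genes. Of the 14, 4 had an interval above 0 and 7 below, against 13.2% and 9.15% of all genes, and their median log2 ratio was -0.23, against 0.07 over all genes. Mgl2, the close relative of Clec10a, stood at 35.1 CPM in KO against 110 CPM in DKO (1.65, 1.41 to 1.89), and Irf4, a transcription factor of alternative activation, had 14.5 and 32.4 CPM (1.16, 0.73 to 1.57). Ccl22 and Chil3 were nearer (0.52 and 0.51). At the other end Arg1, arginase 1, had 2682 UMIs in 175 KO cells and 1 UMI in 1 DKO cell, and Pdcd1lg2 had 42.2 and 19.96 CPM (-1.06, -1.56 to -0.63). Genes that are often named together as markers of alternative activation thus differed in direction between these libraries.

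Of 29 resident macrophage companions with at least 10 UMIs, 21 were higher in DKO, for which the share of all genes was not counted. An interval above 0 was found for 15 and below 0 for 1, against 13.2% and 9.15% of all genes. Their median log2 ratio was 0.39, against 0.07 over all genes. In size, 4 were at least 2-fold higher and 1 at least 2-fold lower, against 5.71% and 4.72% of all genes. The highest of those with at least 30 UMIs were Cbr2 (18 and 19 UMIs, log2 ratio 2.18), the efferocytosis ligand Gas6 (26 and 17 UMIs, 1.51), the fatty acid transporter Cd36 (49.6 and 122 CPM, 1.30) and the coagulation factor F13a1 (31.96 and 62.99 CPM, 0.98). The chemokine Ccl8 was the lowest, at 264 CPM in KO and 122 CPM in DKO (-1.11, -1.30 to -0.93), followed by Trem2 (-0.15, -0.43 to 0.11). Timd4, a marker of long-lived gut macrophages, had 19 and 3 UMIs, and Vsig4, Cd209f and Cd209b had none in either library.

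The sequence relatives of the members bear on whether reads could have been shared. Retnla cells of cluster 3 had no UMI of Retnlb or Retnlg, in 27 KO and 38 DKO cells. Retnlg was a gene of the neutrophil-like cluster, which held 48 of its 52 KO cells and 20 of its 20 DKO cells of the lineage. Stab2, Folr1 and Cd163l1 had no UMI in the lineage, and Clec4b2 had none in KO and 7 in DKO, against 93 and 85 for Clec4b1. Mgl2 was the abundant relative, with 340 and 248 UMIs against 202 and 86 for Clec10a. Like Clec10a, Mgl2 was found in clusters 0, 3 and 8 (in cluster 3, in 15.3% and 41.4% of cells). In cluster 1 they differed more, with Clec10a in 5.31% of KO and 5.17% of DKO cells and Mgl2 in 0.354% and 2.59%. Whether reads of Clec10a and Mgl2 were mixed was not tested.

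To see what else the cells with several members carried, monocyte/macrophage-like cells with at least 3 of the 10 genes (46 KO and 61 DKO) were set against those with none (1042 and 165), with medians of 5700 and 5091 UMIs against 5050 and 5081. Of all genes with enough UMIs, 6.94% were at least 2-fold higher and 2.99% at least 2-fold lower in both libraries. Of 23 resident companions, 17 were at least 2-fold higher in both libraries and none was lower in both, with median log2 ratios of 2.04 in KO and 2.07 in DKO. Ccl8 had 2781 against 126 CPM in KO and 499 against 23.7 CPM in DKO, so it was high in these cells in both libraries while lower in DKO overall. Of 8 monocyte genes, 5 were at least 2-fold lower in both, such as Plac8 with 366 against 3254 CPM in KO and 120 against 2574 CPM in DKO. In contrast Fn1, fibronectin, was at least 2-fold higher in both (559 against 80.4 and 607 against 104 CPM). Ccr2, the receptor by which monocytes leave the marrow, was higher by less (454 against 230 and 427 against 211 CPM).

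The inflammatory genes were mixed in those cells: of 11, 5 were at least 2-fold higher in both libraries, among them the chemokines Cxcl2 (3259 against 975 CPM in KO and 3443 against 828 CPM in DKO) and Ccl4, and 2 were at least 2-fold lower, Il1b (1167 against 3003 and 1179 against 2450 CPM) and Nos2. The 7 MHC class II genes were all higher in both, with medians of 0.42 and 0.50. Of 13 alternative activation companions, 3 were at least 2-fold higher in both, Mgl2 with 246 against 15.5 CPM in KO and 298 against 16.2 CPM in DKO, and 3 were at least 2-fold lower. Chil3 had no UMI in the cells with at least 3 members in either library. Within cluster 3 alone, where 4.91% of genes were at least 2-fold higher and 6.41% lower in both, 12 of 20 resident companions and none of 7 inflammatory genes were at least 2-fold higher, but the median UMI count of cells there with none of the genes was 781 in KO and 863 in DKO against 5700 and 4598 in those with at least 3.

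The 10 other genes whose levels over the 1440 KO and 340 DKO monocyte/macrophage-like cells were most like the summed members, by the lower Pearson correlation of the libraries among 6931 genes, were Pltp, Selenop, Ccl7, Gbp2b, C3ar1, Pf4, C1qa, C1qb, Ctsb and C1qc. Pltp, a phospholipid transfer protein, had correlations of 0.42 in KO and 0.50 in DKO, and C1qc, the last of the 10, had 0.36 and 0.34. Cells of a library share its preparation and differ in depth, so these are descriptions of the libraries.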

How the data were processed

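Per the file headers and labels, the authors deposited UMI counts per gene and barcode, made with Cell Ranger 6.0.1 against mm10 (GRCm38) from 10x Genomics 3′ v3.1 libraries of sorted colon cells. These 3′ counts do not scale with transcript length. Following the filters of the study, barcodes were kept if they had 300 to 5000 genes and no more than 10% of UMIs from mitochondria, then clustered with Seurat 5.3.0 (R 4.3.3; 30 components, 20 neighbours, resolution 0.3) on 1954 variable genes, without members or companion lists. Clusters were named from marker lists (at least 3 markers). Levels were pooled CPM, and log2 ratios of DKO over KO had 0.5 counts added to each sum. Background rates covered genes with at least 10 UMIs. Intervals are exact (Poisson, Clopper-Pearson, conditional; 95%) and cover counting error only, since PCR, mice and sorts were not replicated. Cells were thinned by drawing UMIs without replacement. Doublets were kept in the main values; Scrublet (scanpy 1.11.5) called 9 in KO and 0 in DKO. The steps were tested on simulated data.

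All 10 members were named. Of the companion lists of alternative activation and of resident macrophages, the 4 highest and 2 lowest log2 ratios with at least 30 UMIs were named; Timd4, Vsig4, Cd209f, Cd209b and the monocyte and inflammatory genes given by name were picked after their values were seen. The members and lists were chosen with earlier results of these data known. Depth was 12549471 UMIs in KO and 3414944 in DKO.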

Additional observations from a re-analysis of the deposited data

Results flagged for a closer look

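Retnla had a log2 ratio of DKO over KO of 0.70 in cluster 3 and of -5.45 in the epithelial-like cluster 9, and was looked at because the directions were opposite; the difference was not tested. The value in cluster 9 came from 1 of 34 KO cells, with 145 Retnla UMIs, and none of 8 DKO cells, so it depends on the 0.5 counts added. That cell had 10580 UMIs in all, with 131 of Lyz2, 10 of Mrc1, 2 of Csf1r and none of Epcam, and it also held Clec4b1 and Fcrls.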

How the results depend on the processing

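No paired analysis was possible because each genotype had 1 library. The log2 ratio of every member stayed above 0 under each of 12 alternatives (120 of 120 values): other cell gates and filters, thinning, TMM scaling (edgeR 4.0.16), doublet scores, the cell with the most UMIs left out, and a lower count minimum. All of them reuse the same libraries and the ratio the members were chosen on. Some intervals of the rarer genes lay across 0, as in thinned cells for Folr2 (-0.48 to 2.44) and Lyve1 (-4.72 to 5.42). The median over the members was 1.75 and ranged from 1.61 (Csf1r+ cells) to 2.16 (thinned cells), and the members at least 2-fold higher, among those with at least 10 UMIs, went from 9 of 10 to 7 of 8 without the cell with the most UMIs of each, 8 of 8 in thinned cells and 10 of 10 in monocyte/macrophage-like cells. The share of cells with at least 3 members moved from 2.85% in KO and 16.1% in DKO to 1.25% and 7.04% in thinned cells, and to 0.988% and 6.12% where 2 UMIs were needed for a positive cell.

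Alternatives added after the data were seen turned on cluster 3, and no share of all genes was counted for them. In its cells alone the median log2 ratio was 0.93, 5 of 10 members were at least 2-fold higher and the shares with at least 3 members were 14.9% and 46.8%. With those cells thinned to 1000 UMIs the values were 1.07, 5 of 7, 4.14% and 21.7%, and Cd163 had a log2 ratio of -0.71, on 1 UMI in KO and none in DKO. Without cluster 3 they were 0.99, 3 of 7, 0.667% and 4.36%, and the ratios of Retnla (-5.91, none of its UMIs in DKO) and Folr2 (-0.88) were below 0. The causes were not tested. Cd163, Lyve1 and Folr2, with at most 27 UMIs a library, are limited by depth.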
